A study of Arabidopsis thaliana with 12 samples.

Results

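The heat response of flowers was compared between wild-type Arabidopsis and an XBAT31 mutant, as the change from 22 °C to 38 °C in the mutant minus the same change in the wild type. All 12 RNA sequencing libraries of the series entered this comparison, 3 in each of 4 groups: WT at 22 °C, WT after 3 h at 38 °C, XBAT31 mutant at 22 °C and XBAT31 mutant after 3 h at 38 °C. A library was made from polyadenylated RNA of 9 flowers of stages 1 to 12, and the labels call the 3 libraries of a group biological replicates. Whether each pool came from different plants is not stated, so a p-value here reflects the spread among the pools, which may be technical. The sources used here do not give the kind of mutant allele or the number of lines. A gene's difference is given on the log2 scale, where a value below 0 means a response that was lower in the mutant.

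XBAT31 codes for a RING-type E3 ubiquitin ligase with ankyrin repeats, an enzyme class that marks chosen proteins for breakdown by the proteasome. In Arabidopsis seedlings it is known to act on ELF3, a component of the evening complex that holds back growth in the warmth. A heat shock sets free heat shock factors of class A, which bind heat shock elements and switch on chaperone genes. Factors of class B, among them HSFB2A and HSFB2B, lack the activation domain and mostly repress transcription.

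XBAT31 itself (AT2G28840, chr2:12378337-12380742, plus strand) was lower in the mutant libraries at both temperatures, which checks the genotype labels. FPKM, the fragments of a transcript scaled to its length and to library depth, was 95.3, 96.8 and 96.6 in the WT libraries at 22 °C and 109, 110 and 107 at 38 °C. In the mutant it was 54.3, 55.7 and 45.3 at 22 °C and 54.2, 47.5 and 49.4 at 38 °C. The genotypes did not overlap at either temperature, and the transcript was lower but present in the mutant, by a log2 change of -0.93 at 22 °C (adjusted p = 0.000861) and -1.15 at 38 °C (adjusted p = 6.98e-05). All adjusted p-values of single comparisons are from edgeR's quasi-likelihood test with Benjamini-Hochberg adjustment over 23585 genes unless another tool is named. ELF3 transcripts did not pass the test for a different heat response (log2 difference -0.07, 95% confidence interval -0.32 to 0.17, adjusted p = 0.796).

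Library totals ran from 44983198 to 63088433 estimated counts. Some libraries stood apart in marker genes of other tissues. The summed FPKM of 21 genes of photosynthetic tissue was 5150 in mutant replicate 2 at 22 °C against 10600 and 11000 in the other two of its group. For 27 genes of maturing pollen it was 725 in mutant replicate 1 at 38 °C, against 2780 and 1310, and 1180 in WT replicate 2 at 38 °C, against 1980 and 2450. WT replicate 3 at 22 °C stood apart as well, with 4600 for pollen against 2100 and 2540, and 443 for 25 tapetum genes against 872 and 688. No marker gene of the pollen, tapetum, photosynthesis, or epidermis and pistil lists was at 0 in a whole group, and none was called for the difference by edgeR, DESeq2 or limma, nor reached an unadjusted p below 0.05. The part of these libraries in the results below was not tested by a covariate, but each called gene is given with the first 3 and without them, and a fit without all 4 is named where it changed a call. That fit was chosen after seeing the data. It lost the calls of BAM7 and bZIP28 beside those lost without the 3, and restored none among the named genes. The summed FPKM of 21 genes of floral organ identity and meristems was between 935 and 1070 in every library. In bulk RNA, fewer cells of a type and less RNA per cell cannot be told apart.

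The heat response differed between genotypes for 374 of 23585 genes (1.59% called at an adjusted p below 0.05), and mostly it was lower in the mutant. A lower response was called for 278 genes (1.18% of those tested) and a higher one for 96 (0.407%). These shares are the background for all counts of called list members below. At an unadjusted p below 0.05 there were 3836, DESeq2 called 1842 (7.81%) and limma on log2(FPKM + 1) called 321 of 20807 (1.54%). The median difference over all tested genes was 0.0346, and 46.4% of them were below 0. Scaling the libraries on 9 reference genes in place of all genes shifted that median by -0.114 and called 32 genes higher and 539 lower, so that the share of higher calls was 5.6% in place of 25.7%. With the scaling on all genes, heat lowered 6 of these 9 in the wild type and 7 in the mutant (median -0.325 and -0.281). Over all tested genes 16.4% and 13.6% were lowered. Scaling on the 9 therefore raised heat changes in both genotypes. The excess of lower over higher calls was found under both scalings, while its size depended on the scaling.

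The called genes fell into 5 classes by what heat did in each genotype, and loss of a response was the most frequent with the settings used here. That order depended on the setting. With scaling on reference genes, 258 responses were smaller and 221 lost, and without the 4 libraries that stood apart 15 were reversed and 10 lost. In the wild type alone, heat changed 7241 genes (30.7% called; 14.3% higher and 16.4% lower) and in the mutant 5875 (24.9% called; 11.3% higher and 13.6% lower). A response called only in the wild type, named lost here, was found for 152 genes, of which 110 rose and 42 fell in wild-type flowers. Responses called only in the mutant, named gained, numbered 84, and 61 of these fell in heated mutant flowers. Both genotypes responded with opposite signs for 67 genes, named reversed: 47 rose in the wild type and fell in the mutant, and 20 did the opposite. The response was smaller in the mutant for 62 genes, 56 of which rose in the wild type, and larger for 9. Of the 7241 genes that heat changed in the wild type, 290 (4.0%) were called for the difference, and Pearson's r between the heat responses of the genotypes was 0.571 over the 23585 genes, which are not independent replicates.

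**Figure D1:**
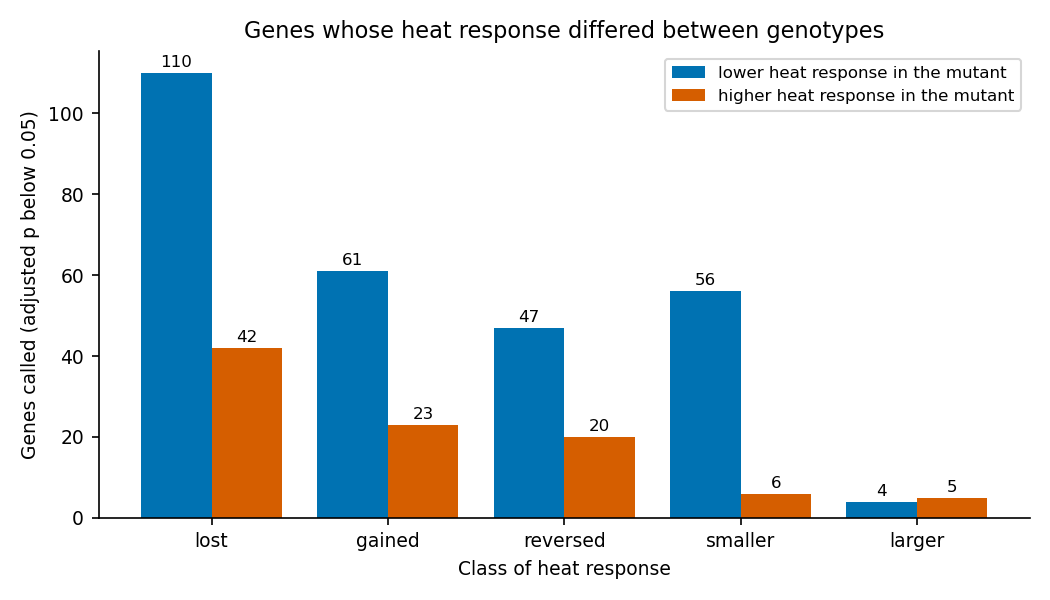
Number of genes (y axis) called for a different heat response, by class of response (x axis) and direction, in flowers of both genotypes. Lower responses outnumber higher ones in every class except the larger responses, with 110 against 42 lost, 61 against 23 gained, 47 against 20 reversed and 56 against 6 smaller.

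**Figure D2:**
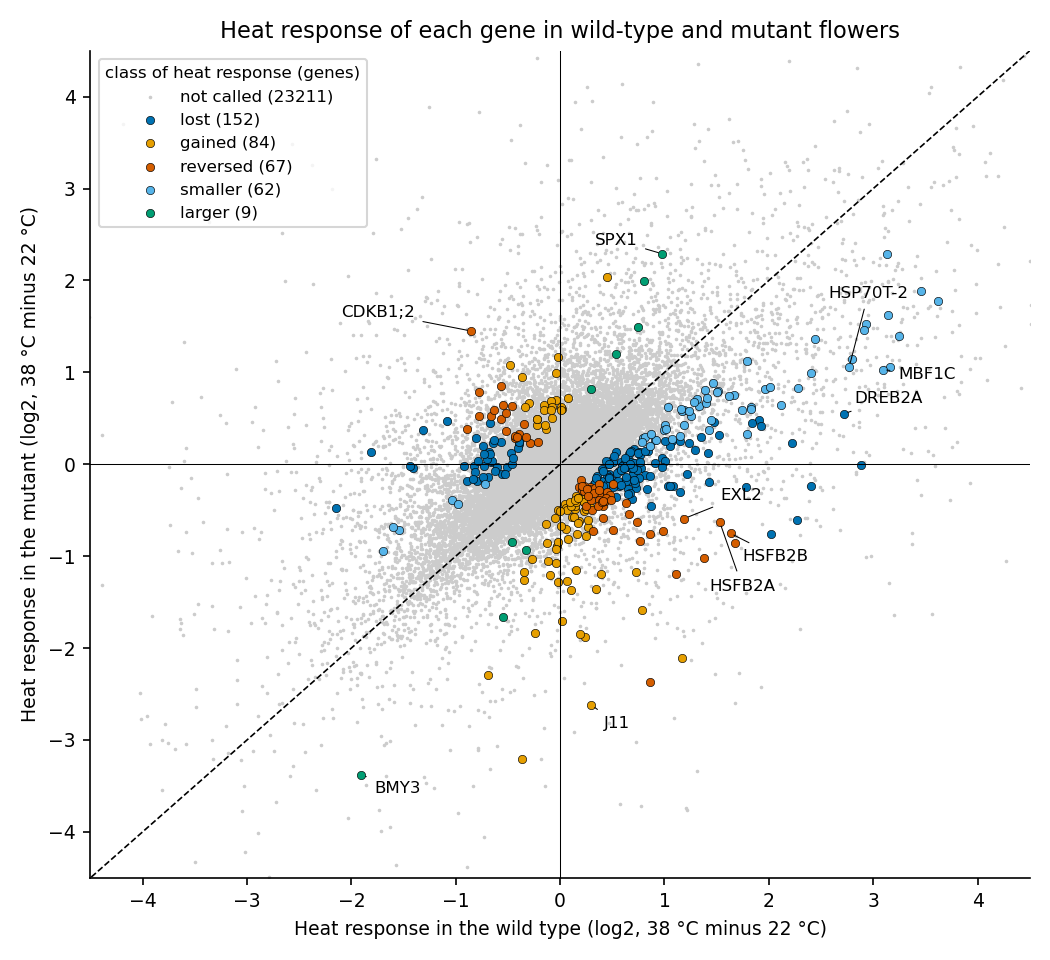
Heat response (log2, 38 °C minus 22 °C) of every tested gene in the wild type (x axis) against the mutant (y axis). Coloured points are the 374 called genes by class, grey points the others, the dashed line marks equal responses, and 315 genes lie beyond the axes. Most coloured points lie below the line on the right, where genes that rose in the wild type rose less, stayed level or fell in the mutant.

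By calls, nearly all of these genes differed between the genotypes at 38 °C. Of the 374 genes, 363 were also called between genotypes at 38 °C, where 2269 of all tested genes were called (9.62%; 4.36% higher and 5.26% lower), and 3 at 22 °C, where 45 were called (0.191%; 0.161% higher and 0.0297% lower). These comparisons share libraries with the difference itself, so the counts describe calls and are no separate evidence. A missing call at 22 °C does not show equal levels, and the larger part of a difference can lie there. ARR6, described below, had -0.89 between genotypes at 22 °C (adjusted p = 0.119) and 0.30 at 38 °C (adjusted p = 0.339). For HSFB2B the values were -0.16 and -2.54. A difference of at least 2-fold was found for 112 of the 374, and the median size was 0.758. The calls leaned on single libraries: 53 genes were called in each of the 12 fits that left out 1 library, and 24 genes were called without the 3 libraries that stood apart, 21 of them among the 374. Without WT replicate 3 at 22 °C as well, 30 were called, 18 of them among the 374. Leaving out WT replicate 1, 2 or 3 at 22 °C left 94, 60 or 173 calls, and leaving out WT replicate 1, 2 or 3 at 38 °C left 75, 126 or 241. For the mutant the counts were 111, 186 and 499 at 22 °C and 160, 120 and 87 at 38 °C, and the genes described first in each paragraph are mostly those called in all 12 fits.

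Both class B repressors rose with heat in the wild type and fell in the mutant. HSFB2B (AT4G11660, chr4:7042630-7044708, plus strand) was at 9.24, 10.2 and 7.27 FPKM in WT flowers at 22 °C and at 31.0, 31.3 and 25.9 at 38 °C. Mutant flowers had 7.36, 8.29 and 8.7 FPKM at 22 °C and 5.75, 4.9 and 4.98 at 38 °C. The temperatures did not overlap in either genotype, and the genotypes overlapped at 22 °C but not at 38 °C. Heat changed HSFB2B by 1.63 in the wild type and -0.75 in the mutant on the log2 scale, a difference of -2.38 (95% confidence interval -2.77 to -1.99, adjusted p = 0.000312). It kept the call in all 12 fits without 1 library and without the 3 libraries that stood apart (-2.42, adjusted p = 0.00934). AT4G11670 on the opposite strand overlaps 465 bases of HSFB2B, and its own difference was -0.10 (adjusted p = 0.847). In RefSeq's annotation AT4G05910 on that strand overlaps HSFB2B as well, and no difference is given for it here.

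HSFB2A (AT5G62020, chr5:24916089-24917643, plus strand) followed HSFB2B in direction. Its FPKM was 6.45, 5.79 and 6.09 in the wild type at 22 °C and 18.9 ± 0.985 (SD, n = 3) at 38 °C. Mutant libraries had 7.53, 5.86 and 6.63 FPKM at 22 °C and 3.85, 5.93 and 4.14 at 38 °C. The heated wild-type libraries stood clear of all others, while the mutant libraries of both temperatures overlapped. The log2 difference was -2.16 (95% confidence interval -2.68 to -1.63, adjusted p = 0.0043), with 12 of 12 fits passing and -2.16 without the 3 libraries that stood apart (adjusted p = 0.0251). Its fall in the mutant alone (-0.63) was less firm than the difference: that call was lost without mutant replicate 1 at 22 °C (adjusted p = 0.075), mutant replicate 1 at 38 °C (0.0704) or mutant replicate 3 at 38 °C (0.0779), without the 3 libraries (0.0667) and with scaling on reference genes (-0.30, 0.174). An antisense transcript is known at this locus, and its reads may be included, since no source used here gives the strand setting of the counting.

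Other genes that rose in the wild type and fell in the mutant included EXL2, of the EXORDIUM family of cell wall proteins linked to growth, and BET10, a bromodomain protein. EXL2 (AT5G64260) was at 35.3, 40.6 and 44.7 FPKM in the wild type at 22 °C, 114, 87.7 and 92.6 at 38 °C, then 61.9, 58.5 and 56.7 in the mutant at 22 °C and 34.1, 43.4 and 48.9 at 38 °C. In each genotype the temperatures did not overlap, and the order was opposite. The log2 difference was -1.78 (adjusted p = 0.00534, and 0.0251 without the 3 libraries that stood apart). BET10 (AT3G01770) had mean levels of 36.1 ± 1.32 and 60.9 ± 2.81 FPKM in wild-type flowers and 42.1 ± 6.62 and 31.2 ± 1.64 in the mutant (SD, n = 3), with a log2 difference of -1.20 (adjusted p = 0.00534 and 0.0251). Both kept their calls in all 12 fits without 1 library. With scaling on reference genes the differences remained called, but the falls in the mutant alone were not (EXL2 -0.27, adjusted p = 0.177; BET10 -0.22, adjusted p = 0.143), and that of EXL2 was also lost without the 3 libraries (-0.43, adjusted p = 0.0847). WRKY39, a calmodulin-binding WRKY factor, had a difference of -0.87 (adjusted p = 0.0143), which was lost without WT replicate 2 at 22 °C (adjusted p = 0.0502) and without the 3 libraries (0.067). Its fall in the mutant alone (-0.45) was smaller than those of EXL2 (-0.59) and BET10 (-0.54), whose calls were lost with scaling on reference genes.

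In the opposite direction, CDKB1;2 and the type-A response regulators ARR4 and ARR7 fell in the wild type and rose in the mutant. CDKB1;2 (AT2G38620, chr2:16152505-16154086, plus strand) codes for a plant-specific cyclin-dependent kinase that acts from G2 into mitosis. It was at 16.3, 16.3 and 17.3 FPKM in the wild type at 22 °C and 9.19, 11.6 and 8.73 at 38 °C. Mutant libraries had 5.2, 5.81 and 5.91 FPKM at 22 °C and 18.8, 15.6 and 15.5 at 38 °C. Temperatures separated in both genotypes and genotypes at both temperatures, in exchanged order. The log2 difference was 2.31 (95% confidence interval 1.93 to 2.68, adjusted p = 0.000312). CDKB1;2 was 1 of the 3 called genes that were also called between genotypes at 22 °C (-1.59, adjusted p = 0.00061). All 12 fits without 1 library kept the call, as did the fit without the 3 libraries (2.34, adjusted p = 0.00152). Its close relative CDKB1;1 did not pass (0.01, adjusted p = 0.981), and AT2G38630, which shares 20 bases with CDKB1;2 on the other strand, had -0.01 (adjusted p = 0.993). CDKB1;2 was the only called gene of 31 tested in the list of cell cycle and DNA replication, whose median was 0.23. The list leaned the same way, with 28 differences above 0 and 3 below, while 46.4% of all tested genes were below 0. Heat lowered 24 of the 31 in the wild type and 18 in the mutant, beside 16.4% and 13.6% of all tested genes.

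Type-A response regulators, which are switched on by cytokinin and dampen its signalling, had a higher response in the mutant for 4 of 8 tested members, with none lower, against 0.407% of all tested genes called higher. Their median heat change was -0.58 in the wild type and 0.46 in the mutant, and their median difference was 1.23. ARR4 (AT1G10470) was at 35.9, 38.1 and 32.1 FPKM in the wild type at 22 °C and 18.5, 22.7 and 20 at 38 °C, and at 20.3, 20.4 and 24.6 and then 29.4, 31.2 and 31.2 in the mutant. The temperatures separated in both genotypes, in opposite order. Its log2 difference was 1.27 (adjusted p = 0.00433) and it was lower in the mutant at 22 °C (-0.73, adjusted p = 0.0125). The rise of ARR4 in the mutant alone (0.39) lost its call without mutant replicate 1 at 22 °C (adjusted p = 0.0638) or mutant replicate 2 or 3 at 38 °C (0.0533 and 0.0503), while the difference kept its call in all 12 fits and without the 3 libraries that stood apart (0.0251).

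ARR7 (AT1G19050) went from 24.2, 27.9 and 23.3 FPKM to 13.9, 16.9 and 16.3 in the wild type and from 13.7, 18.9 and 19.2 to 31.9, 32.8 and 31.4 in the mutant. Here too no temperatures overlapped. The difference was 1.56 (adjusted p = 0.00558), called in all 12 fits but not without the 3 libraries (1.67, adjusted p = 0.0519). With scaling on reference genes its fall in the wild type was not called (-0.33, adjusted p = 0.0918). ARR5 (1.55, adjusted p = 0.0231) and ARR6 (1.19, adjusted p = 0.0419) rose in the mutant only. ARR5 kept its call only without replicate 3 of either WT group, replicate 2 or 3 of the unheated mutant or replicate 1 of the heated mutant, with an adjusted p of up to 0.0785 in the other fits, and ARR6 only without mutant replicate 1 or 3 at 22 °C (up to 0.109). Without the 3 libraries that stood apart neither was called (0.067 and 0.134). Not called were ARR15 (2.01, adjusted p = 0.0966), ARR8 (0.34, 0.352) and ARR9 (-0.32, 0.664), and 2 of the 10 list members were too low to be tested. TCH2, a calmodulin-like protein induced by touch, was reversed in the same direction (1.22, adjusted p = 0.0254), but only without WT replicate 3 at 38 °C, mutant replicate 3 at 22 °C or mutant replicate 1 at 38 °C was it called, with an adjusted p of up to 0.0828 otherwise and 0.0845 without the 3 libraries. The fall of TCH2 in the wild type (-0.63) was smaller than that of ARR7 (-0.77), whose call was lost with scaling on reference genes.

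**Figure D3:**
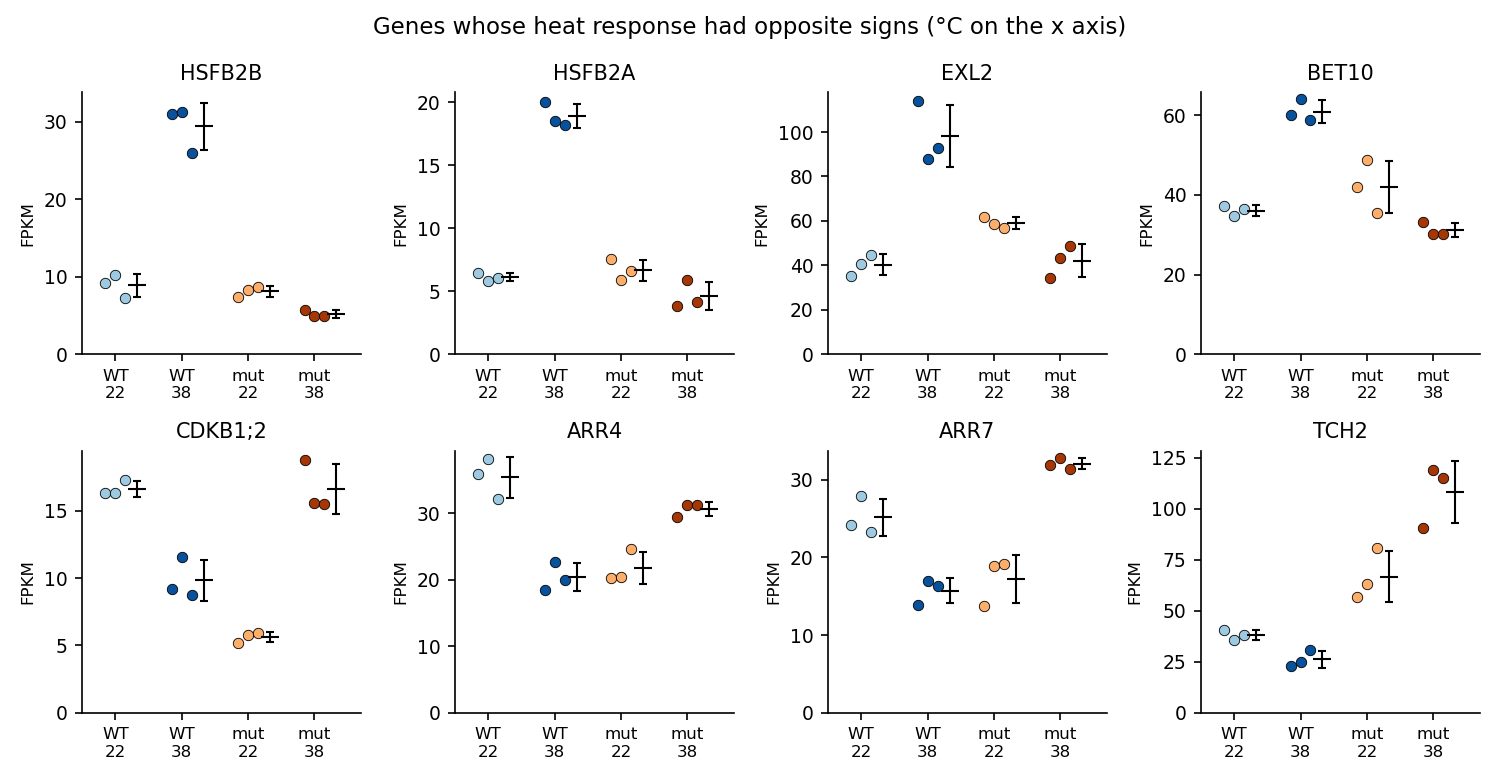
FPKM (y axes) of 8 genes with heat responses of opposite sign, in each library of the wild type (WT) and the mutant (mut) at 22 and 38 °C. Points are libraries, horizontal ticks and bars the mean and SD of 3. HSFB2B, HSFB2A, EXL2 and BET10 are highest in the heated wild type, at 29.4, 18.9, 98.1 and 60.9 FPKM, and CDKB1;2, ARR4, ARR7 and TCH2 rise in the heated mutant.

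Sequences before the transcription start are shown for 5 of the genes that lost or reversed their response, to show where heat, abscisic acid and clock motifs stand. They were picked because they hold a match: the windows of HSFB2A, BET10, ARR4, TPS8 and BAM7 hold none of the 4 motifs. Each is the 250 bases before the start in RefSeq's annotation of TAIR10.1, read 5′ to 3′ on the gene's strand. Capitals mark matches on either strand to the heat shock element GAANNTTC, the abscisic acid response element ABRE (ACGTGNC), the G box CACGTG or the evening element AAATATCT.
HSFB2B (chr4:7042104-7042353, plus strand): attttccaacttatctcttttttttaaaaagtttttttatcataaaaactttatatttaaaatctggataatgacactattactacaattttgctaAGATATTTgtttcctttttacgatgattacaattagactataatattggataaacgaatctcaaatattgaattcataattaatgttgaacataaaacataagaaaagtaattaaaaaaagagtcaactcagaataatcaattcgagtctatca
CDKB1;2 (chr2:16152223-16152472, plus strand): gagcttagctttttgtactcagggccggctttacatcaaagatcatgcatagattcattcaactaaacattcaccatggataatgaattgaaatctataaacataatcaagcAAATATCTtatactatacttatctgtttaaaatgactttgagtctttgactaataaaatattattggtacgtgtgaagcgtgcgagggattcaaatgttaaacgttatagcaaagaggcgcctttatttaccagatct
DREB2A (chr5:1601955-1602204, plus strand): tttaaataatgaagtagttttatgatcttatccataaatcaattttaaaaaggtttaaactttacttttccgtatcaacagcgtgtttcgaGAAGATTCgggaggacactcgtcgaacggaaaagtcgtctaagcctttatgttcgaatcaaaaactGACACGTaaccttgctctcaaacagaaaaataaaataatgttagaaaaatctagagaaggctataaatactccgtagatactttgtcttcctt
SNRK2.3 (chr5:26710052-26710301, plus strand): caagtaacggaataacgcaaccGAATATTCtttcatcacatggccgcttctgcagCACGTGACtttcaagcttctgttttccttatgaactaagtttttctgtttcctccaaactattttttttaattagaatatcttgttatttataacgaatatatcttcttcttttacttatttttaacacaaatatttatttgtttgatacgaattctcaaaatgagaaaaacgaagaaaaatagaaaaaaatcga
ARR7 (chr1:6579315-6579564, minus strand): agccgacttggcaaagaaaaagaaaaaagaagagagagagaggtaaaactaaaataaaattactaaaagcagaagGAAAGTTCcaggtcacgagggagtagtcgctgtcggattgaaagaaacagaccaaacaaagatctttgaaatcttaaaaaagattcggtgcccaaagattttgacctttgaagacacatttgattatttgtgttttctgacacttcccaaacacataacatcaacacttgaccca
HSFB2B and CDKB1;2, which reversed in opposite directions, each hold 1 evening element. DREB2A holds a heat shock element and an ABRE, and in SNRK2.3 an ABRE overlaps a G box downstream of a heat shock element. ARR7 holds 1 heat shock element. A match is a description of letters and not a binding site.

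Over windows from 250 bases before to 50 after the start, ABRE letters were found in 20.6% of 262 genes with a lower response, 4.35% of 92 with a higher response and 11.1% of all 22207 tested genes with a window. The G box, whose letters overlap the ABRE, was found in 15.3%, 2.17% and 8.49% of the same sets. Evening elements were present in 8.78% of lower, 14.1% of higher and 5.93% of all windows. Heat shock elements stood in 14.9%, 16.3% and 11.5%, and in 25.9% of 54 windows of genes with a smaller response. These shares are descriptions without a test.

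Of 32 large chaperones and co-chaperones, heat raised 23 in each genotype and lowered 0 in the wild type and 2 in the mutant, and of 16 small heat shock proteins it raised 14 in each. Over all tested genes it raised 14.3% and lowered 16.4% in the wild type, and raised 11.3% and lowered 13.6% in the mutant. A smaller rise in the mutant passed the test for 2 of the 32 and 1 of the 16, beside 1.18% of all tested genes called lower. HSP70T-2 (AT2G32120), a truncated member of the HSP70 family, is in neither of these lists and not part of those counts. It went from 3.64, 4.46 and 4.29 FPKM to 32.6, 30.4 and 27.5 in the wild type and from 3.31, 3.27 and 3.28 to 7.78, 7.66 and 6.78 in the mutant. All temperatures separated, and the heated mutant stayed far below the heated wild type. The difference was -1.71 on the log2 scale (95% confidence interval -2.03 to -1.38, adjusted p = 0.000794). BAG6, a calmodulin-binding co-chaperone and the 1 called of 7 BAG genes, rose from 6.97 ± 1.23 to 32.2 ± 4.38 FPKM in the wild type and from 6.87 ± 0.532 to 11.6 ± 1.3 in the mutant (SD, n = 3; difference -1.47, adjusted p = 0.0086). Both kept their calls in all 12 fits without 1 library. Without the 3 libraries that stood apart HSP70T-2 was called (adjusted p = 0.0251) and BAG6 was not (-1.50, 0.0661).

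HSP101, the disaggregase needed for acquired thermotolerance, had 9.89, 9.75 and 9.1 FPKM in the wild type at 22 °C and 60.6, 56.1 and 50.2 at 38 °C, and 6.71, 7.83 and 6.0 and then 21.9, 18.8 and 16 in the mutant. The groups did not overlap in any of these comparisons. Its difference was -1.09 (adjusted p = 0.0172), lost without WT replicate 2 at 22 °C (0.0589), WT replicate 1 at 38 °C (0.058) or the 3 libraries (0.0548). HSA32, which prolongs thermotolerance after a heat shock, had -0.84 (adjusted p = 0.0399), called only without mutant replicate 3 at 22 °C or mutant replicate 1 at 38 °C (up to 0.115 in the other fits, and 0.074 without the 3 libraries). These were the 2 called of 32 large chaperones and co-chaperones (6.25%), with 27 of 32 differences below 0 and a median of -0.26. HSP70 (AT3G12580, -0.13, adjusted p = 0.773), HSP90.1 (-0.55, 0.225) and FES1A (-0.63, 0.0548) did not pass. HSP70 is 1 of several near-identical genes whose reads the counting could split.

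Among 16 small heat shock proteins, chaperones that bind unfolding proteins, 1 passed, lower in the mutant. That gene, AT1G54050, rose from 13.7 ± 0.808 to 111 ± 15.8 FPKM in the wild type and from 13.2 ± 1.06 to 40.9 ± 9.07 in the mutant (SD, n = 3), a difference of -1.40 (adjusted p = 0.0175). The call was lost without WT replicate 1 or 2 at 22 °C (0.0528 and 0.0652), WT replicate 1 at 38 °C (0.058), replicate 1 of the unheated mutant (0.0508), replicate 3 of the heated mutant (0.0521) or the 3 libraries that stood apart (0.0872). Of members that did not pass, HSP18.2 rose from 8.06, 5.63 and 4.65 FPKM to 992, 658 and 863 in the wild type and from 4.31, 5.0 and 5.62 to 695, 700 and 564 in the mutant, so the genotypes overlapped at both temperatures (difference -0.08, 95% confidence interval -0.71 to 0.54, adjusted p = 0.924). ATHSP22.0 had 0.05 (-0.77 to 0.88), while HSP23.6-MITO had -2.10 (-3.32 to -0.88, adjusted p = 0.0886) and AT1G07400 -1.16 (adjusted p = 0.0814). Over the list, 12 of 16 differences were below 0, and the median heat change was 6.98 in the wild type and 5.70 in the mutant. DESeq2 called 6 of the 16 and limma on log2(FPKM + 1) called 4.

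Of 19 heat shock factors, HSFB2A and HSFB2B were the only ones called, beside 1.18% of all tested genes called lower. HSFA2, the class A factor that sustains chaperone transcription after heat, was at 63.5, 71.0 and 43.1 FPKM in the heated wild type and 16.2, 13.9 and 11.7 in the heated mutant, while the libraries at 22 °C had, in the mutant, 2.72, 4.36 and 2.69 against 6.34, 6.35 and 6.12 in the wild type. The genotypes did not overlap at either temperature. Its difference of -1.15 missed the threshold (95% confidence interval -1.80 to -0.50, adjusted p = 0.0814), and passed with DESeq2 (-1.18, adjusted p = 0.0012), with scaling on reference genes (-1.27, adjusted p = 0.0428) and without WT replicate 3 at 38 °C (-1.34, adjusted p = 0.0447). It did not pass with limma on log2(FPKM + 1) (-1.20, adjusted p = 0.0564) or without the 3 libraries that stood apart (-0.89, adjusted p = 0.159), and over all its alternatives the adjusted p ran up to 0.199. HSFA1A (-0.34, adjusted p = 0.608), of the master activators, and HSFA3 (0.14, adjusted p = 0.761), a target of DREB2A, did not pass.

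Regulators that act beside the heat shock factors were called lower in 3 of 13 cases and higher in none, beside 1.18% and 0.407% of all tested genes. DREB2A (AT5G05410), a transcription factor of the drought and heat responses, was at 2.05, 1.7 and 1.8 FPKM in the wild type at 22 °C and 16.2, 11.4 and 11.6 at 38 °C. In the mutant it was at 1.88, 1.82 and 1.97 and then 2.45, 3.95 and 2.49. The heated groups were clearly separate, and the unheated ones overlapped. The difference was -2.17 (95% confidence interval -2.85 to -1.49, adjusted p = 0.0115), called in all 12 fits and not without the 3 libraries that stood apart (-2.20, 0.067). Its rise in the mutant alone (0.55, adjusted p = 0.0932) was called with DESeq2 (0.57, adjusted p = 0.0418) and with scaling on reference genes (0.87, adjusted p = 0.00746).

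bZIP28, a membrane-tethered factor of the unfolded protein response, rose from 19.1 ± 0.443 to 33.4 ± 1.09 FPKM in the wild type, against 18.4 ± 0.479 and 20.1 ± 2.34 in the mutant (SD, n = 3). The difference was -0.69 (adjusted p = 0.0198, 0.0483 without the 3 libraries that stood apart and 0.053 without all 4), lost without WT replicate 1 or 2 at 22 °C (0.0552 and 0.0705), WT replicate 1 at 38 °C (0.0687) or mutant replicate 1 at 22 °C (0.0584). MBF1C, a coactivator needed for thermotolerance, was at 245, 162 and 122 FPKM in the heated wild type and at 18.7, 32.2 and 15.3 in the heated mutant, from 22.4, 16.9 and 18.8 and from 12.1, 9.92 and 8.28 at 22 °C. Heated wild-type libraries stood far above the others and varied widely among themselves. Its difference of -2.06 (adjusted p = 0.0443) was called only without WT replicate 3 at 38 °C, mutant replicate 3 at 22 °C or mutant replicate 2 at 38 °C, with an adjusted p of up to 0.124 in the other fits and 0.147 without the 3 libraries. No gene of the list of endoplasmic reticulum protein folding was called among 22 by edgeR, with 3 at an unadjusted p below 0.05, 1 by DESeq2 and 0 by limma. That list lacks ATERDJ3A (AT3G08970), which was meant for it but was not matched by name. ATERDJ3A was called by edgeR, with a smaller response in the mutant.

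SR45a, a splicing factor of the serine and arginine-rich kind, lost much of its rise as well. Its FPKM went from 70.9, 68.4 and 62.4 to 248, 259 and 213 in the wild type and from 54.8, 62.5 and 48.4 to 100, 86.3 and 81.6 in the mutant. Temperatures separated in both genotypes, and genotypes only after heat. The difference of -1.15 (adjusted p = 0.00929) kept its call in all 12 fits and without the 3 libraries (-1.11, adjusted p = 0.0405). SR45a was the only called member of 20 SR splicing factors, of which 18 had a difference below 0 (median -0.24). Over all tested genes 1.18% were called lower and 46.4% had a difference below 0.

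In abscisic acid signalling, single genes had a smaller or lost rise in the mutant. HAI1 (AT5G59220), a phosphatase of clade A that holds back this signalling, went from 21.4, 21.1 and 22.8 FPKM to 84.6, 83.2 and 74.0 in the wild type and from 27.5, 23.2 and 23.7 to 34.5, 28.8 and 37.4 in the mutant. The heated wild type was above all other libraries. The difference was -1.47 (95% confidence interval -1.79 to -1.14, adjusted p = 0.00219), kept in all 12 fits and without the 3 libraries that stood apart (-1.53, 0.0312). HAI1 was the 1 called of 8 phosphatases of its clade, where ABI1 had -0.72 (adjusted p = 0.0703). Its own rise in the mutant (0.33) was lost in 6 of the 12 fits, with adjusted p of 0.0511 to 0.145: without WT replicate 1 or 2 at 22 °C, mutant replicate 2 or 3 at 22 °C, or mutant replicate 1 or 3 at 38 °C. It was also lost without the 3 libraries (0.174).

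ABF3, a factor that binds ABRE motifs, rose from 12.1 ± 1.23 to 97.8 ± 19.4 FPKM in the wild type and from 16.4 ± 3.55 to 48.5 ± 4.52 in the mutant (difference -1.46, adjusted p = 0.0188). SNRK2.3, a kinase that activates such factors, rose from 31.7 ± 1.15 to 50.7 ± 3.37 in the wild type and had 34.2 ± 3.72 and 31.5 ± 2.24 in the mutant (SD, n = 3; difference -0.81, adjusted p = 0.0199). Both calls were lost without WT replicate 1 at 22 °C (ABF3 0.0552, SNRK2.3 0.0528), WT replicate 2 at 22 °C (0.0711 and 0.0728) or WT replicate 1 at 38 °C (0.0509 and 0.065), and that of ABF3 also without mutant replicate 2 at 38 °C (0.0503). Neither was called without the 3 libraries that stood apart (0.0919 and 0.067). NCED3, the enzyme of a limiting step in abscisic acid synthesis, had -2.05 (adjusted p = 0.0705). ABF3 was the only called gene of 25 abscisic acid factors and outputs, whose median difference was 0.02 beside 0.03 for all genes.

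Some called genes of sugar and carbon metabolism were named by their class or size, while fixed lists of that kind held few calls. BAM7 was the 1 called of the 8 beta-amylases in the list, which did not hold BMY3, a called gene of that family given below. None was called by edgeR or limma among 7 invertases (0 at an unadjusted p below 0.05, 0 by DESeq2) or 7 genes of galactinol and raffinose synthesis (1 and 1). TPS8, a trehalose-phosphate synthase-like protein, was at 9.07, 8.8 and 8.51 FPKM in the wild type at 22 °C and 20.8 ± 2.72 (SD, n = 3) at 38 °C, against 10.8, 8.44 and 9.1 and then 6.98, 8.33 and 9.48 in the mutant. Only the heated wild type stood apart. The difference was -1.45 (adjusted p = 0.0086), and BAM7, a nuclear beta-amylase-like protein that binds DNA, had -0.98 (adjusted p = 0.00648). Both were called in all 12 fits and without the 3 libraries that stood apart (0.0107 and 0.0405), but BAM7 was not called without all 4 (0.053). BMY3, of the beta-amylase family, fell in both genotypes and further in the mutant, to 4.05, 4.79 and 5.79 FPKM from 57.3, 48.8 and 35.8, against 8.52, 8.43 and 9.11 from 31.8, 29.5 and 30.0. Its difference of -1.48 (adjusted p = 0.0136) was lost without WT replicate 2 at 22 °C (0.0502) or the 3 libraries (0.0751). iPGAM1, a phosphoglycerate mutase of glycolysis, fell by 1.03 on the log2 scale in the wild type and by 0.38 in the mutant (difference 0.65, adjusted p = 0.0123, and 0.0751 without the 3 libraries).

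Further called genes belonged to none of the gene lists. MTO3, an S-adenosylmethionine synthetase, went from 214, 211 and 183 FPKM to 111, 129 and 132 in the wild type and from 183, 180 and 226 to 250, 247 and 276 in the mutant, so the genotypes overlapped at 22 °C and not at 38 °C. Its difference was 1.09 (adjusted p = 0.00936). Its rise in the mutant alone (0.28, adjusted p = 0.0707) was called with DESeq2 (0.31, adjusted p = 0.0155), limma on log2(FPKM + 1) (0.40, adjusted p = 0.0208), scaling on reference genes, counts divided by 4 and without mutant replicate 3 at 22 °C (0.40, adjusted p = 0.0166), so its class rests on the setting. PSK3, a precursor of the growth peptide phytosulfokine, fell by 0.67 on the log2 scale in the wild type, from 32.4 ± 0.789 FPKM, and was at 35.2 ± 1.5 and 40.9 ± 1.7 in the mutant (SD, n = 3; difference 0.78, adjusted p = 0.0106). MEF8S, a pentatricopeptide repeat protein of mitochondrial RNA editing, rose less in the mutant (-1.05, adjusted p = 0.0143). These 3 were called in all 12 fits without 1 library and not without the 3 libraries that stood apart (0.067, 0.0704 and 0.067). SLK2, a SEUSS-like adaptor of transcription, had -0.88 (adjusted p = 0.0137), lost without WT replicate 2 at 22 °C (0.0502) and without the 3 libraries (0.0691).

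Genes that heat lowered only in the mutant included J11, ACHT4 and DYL1. J11, a small chloroplast J-domain co-chaperone, was at 29.6, 25.5 and 22.0 FPKM in the wild type at 22 °C and 40.7, 26.8 and 33.3 at 38 °C, and at 70.8, 37.6 and 30.5 and then 6.37, 9.88 and 7.96 in the mutant. Wild-type temperatures overlapped, while the heated mutant was below every other library. The difference was -2.92 (95% confidence interval -3.83 to -2.01, adjusted p = 0.0112). ACHT4, an atypical thioredoxin of the chloroplast, fell from 42.0, 34.2 and 26.4 to 9.48, 10.2 and 11.2 FPKM in the mutant and was between 26.8 and 33.5 in all wild-type libraries (difference -1.60, adjusted p = 0.00818). Both were called in all 12 fits and not without the 3 libraries that stood apart (0.0548 and 0.0603).

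DYL1, a dormancy-associated protein, was at 211, 199 and 116 FPKM in the mutant at 22 °C and 43.2, 42.5 and 68.7 at 38 °C, with 125, 120 and 128 and then 176, 140 and 153 in the wild type. The difference of -2.11 (adjusted p = 0.0134) was lost without WT replicate 2 at 22 °C (0.0502) and without the 3 libraries (0.0751). Of 9 NAC factors of stress and senescence, NAP (-3.28, adjusted p = 0.0473) and ATAF1 (-1.32, adjusted p = 0.0238) were called, beside 1.18% of all tested genes called lower. NAP is a senescence regulator whose mutant libraries at 22 °C varied from 2.32 to 7.18 FPKM. It kept the call only without mutant replicate 2 or 3 at 22 °C (up to 0.124 otherwise). The call of ATAF1 was lost without WT replicate 2 at 22 °C (0.0749), WT replicate 1 at 38 °C (0.0639), mutant replicate 1 at 22 °C (0.0661), or mutant replicate 1 or 3 at 38 °C (0.0563 and 0.076). Without the 3 libraries neither was called (0.0695 and 0.0865). TZF3, a CCCH zinc finger protein, had -1.28 (adjusted p = 0.0176), lost without WT replicate 1 or 2 at 22 °C (0.0528 and 0.0655), WT replicate 1 at 38 °C (0.062), mutant replicate 3 at 38 °C (0.0592) or the 3 libraries (0.0865).

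**Figure D4:**
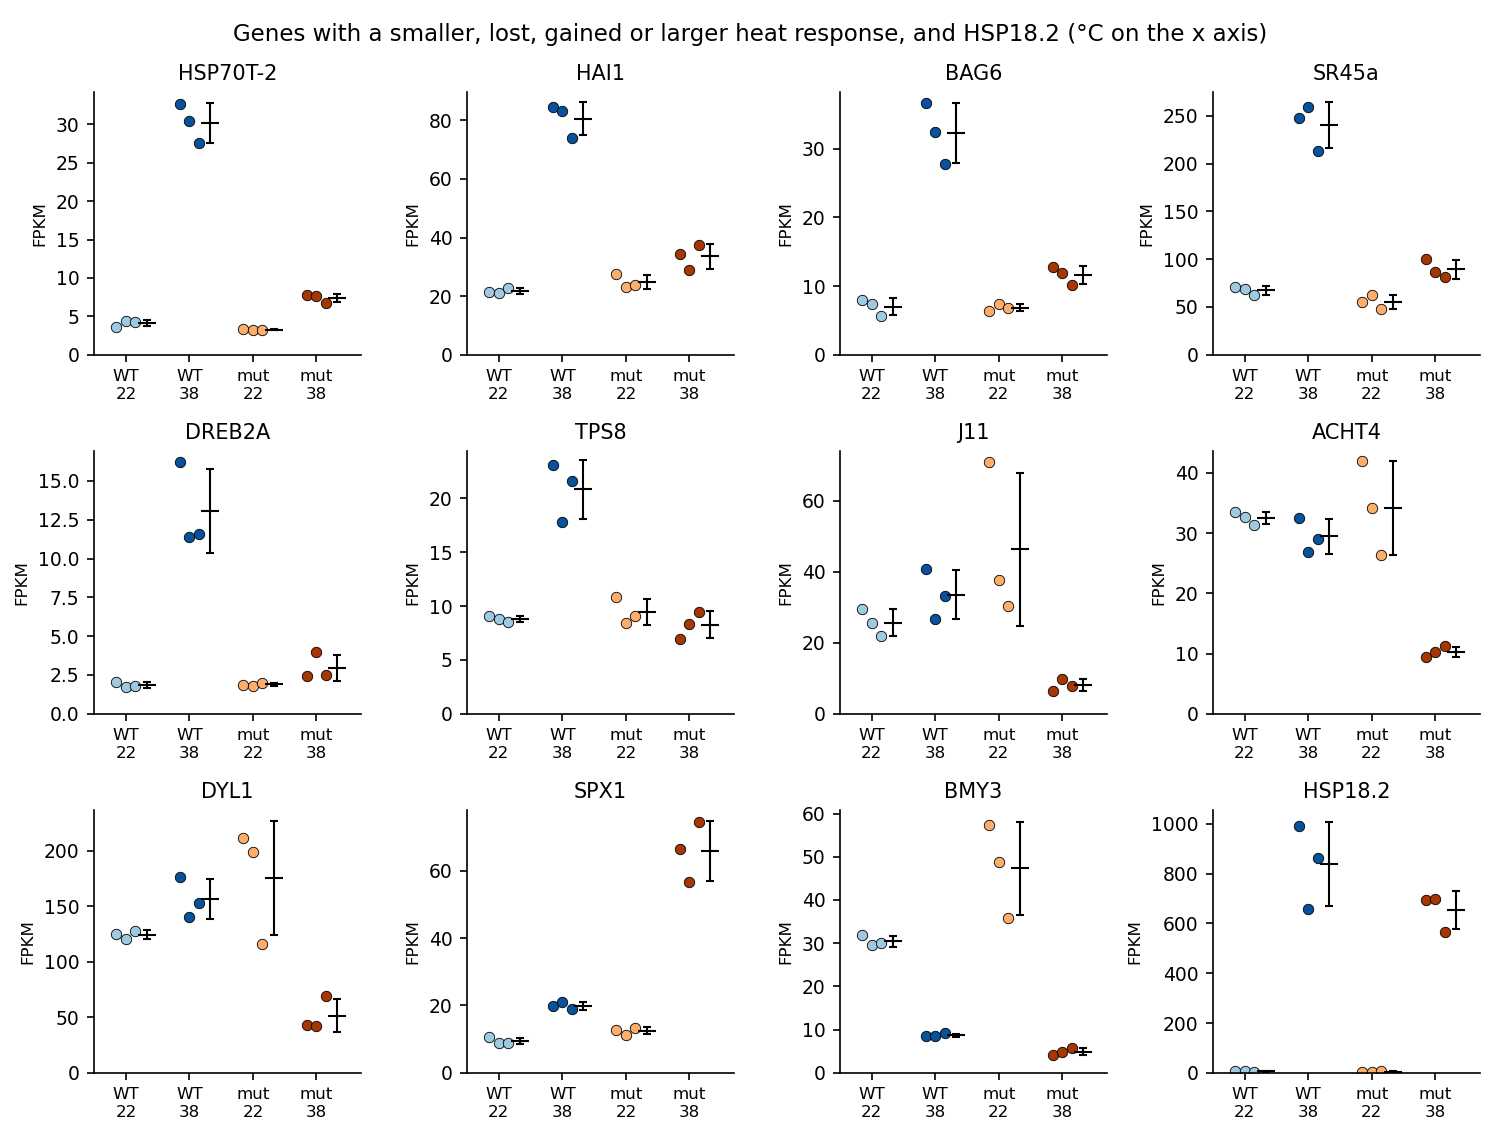
FPKM (y axes) of 11 genes with a smaller, lost, gained or larger heat response in the mutant, and of HSP18.2, in each library of the wild type (WT) and the mutant (mut) at 22 and 38 °C. Points are libraries, horizontal ticks and bars the mean and SD of 3. HSP70T-2, HAI1, BAG6, SR45a, DREB2A and TPS8 are high only in the heated wild type, J11, ACHT4 and DYL1 low only in the heated mutant, and HSP18.2 is high in both heated groups, at 838 and 653 FPKM.

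Among genes of autophagy, which breaks down cell contents in the vacuole, ATG13, ATG8E and ATG8C had lower responses in the mutant. ATG13, of the kinase complex that starts the process, rose from 14.8, 14.0 and 13.4 FPKM to 30.4, 24.2 and 25.7 in the wild type and had 16.4, 16 and 11.8 and then 12.5, 13.2 and 13.8 in the mutant, where the temperatures overlapped. Its difference was -1.10 (adjusted p = 0.0168), lost without WT replicate 2 at 22 °C (0.0589) or the 3 libraries that stood apart (0.0742). ATG8E (-1.12, adjusted p = 0.0254) and ATG8C (-0.73, adjusted p = 0.0477), ubiquitin-like proteins of the autophagosome, were the 2 called of 12 genes of their list, where 10 differences were below 0. Over all tested genes 1.18% were called lower and 46.4% were below 0. ATG8E kept the call only without WT replicate 3 at 22 °C, WT replicate 2 at 38 °C, mutant replicate 3 at 22 °C, or mutant replicate 1 or 2 at 38 °C (up to 0.0828 otherwise), and ATG8C only without mutant replicate 3 at 22 °C or mutant replicate 2 at 38 °C (up to 0.126). Without the 3 libraries neither was called (0.067 and 0.107).

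Of 12 phosphate response genes, 2 rose more in the mutant, beside 0.407% of all tested genes called higher. SPX1 (AT5G20150), a phosphate sensor that holds the regulator PHR1 in check, rose from 10.6, 8.8 and 8.97 FPKM to 19.7, 21.1 and 18.9 in the wild type and from 12.8, 11.3 and 13.3 to 66.5, 56.7 and 74.4 in the mutant. The heated mutant was above every other library, and neither temperature showed an overlap of the genotypes. The difference was 1.32 (95% confidence interval 0.98 to 1.65, adjusted p = 0.00534), kept in all 12 fits and lost without the 3 libraries that stood apart (1.27, 0.0543). G3Pp1, a glycerol-3-phosphate permease induced by phosphate shortage, had 1.19 (adjusted p = 0.0259) and was called only without WT replicate 2 at 38 °C, mutant replicate 1 or 3 at 22 °C or mutant replicate 2 at 38 °C (up to 0.0842 otherwise, and 0.0865 without the 3 libraries). The median difference of the 12 was 0.47. EXL5 of the EXORDIUM family also rose only in the mutant (1.31, adjusted p = 0.0378), called only without WT replicate 3 at 38 °C, mutant replicate 3 at 22 °C or mutant replicate 1 at 38 °C (up to 0.103 otherwise, and 0.0865 without the 3 libraries), and not with scaling on reference genes (0.052).

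Of 20 clock genes tested, 2 were called higher and 2 lower, beside 0.407% and 1.18% of all tested genes, and the list leaned to lower responses. Differences were below 0 for 16 of the 20, beside 46.4% of all tested genes, with a median of -0.27. An unadjusted p below 0.05 was reached by 11, 8 were called by DESeq2 and 2 by limma. FKF1, a blue light receptor of the evening (0.67, adjusted p = 0.033), and PRR5, a repressor of the morning genes (0.75, adjusted p = 0.033), rose more in the mutant. FKF1 reached 60, 53.6 and 58 FPKM in the heated mutant against 29.5, 31.3 and 37.1 in the heated wild type, and PRR5 reached 30.8, 32.3 and 36.2 against a mean of 16.6 ± 1.47 (SD, n = 3). RVE1, a morning factor, fell only in the mutant (-1.34, adjusted p = 0.0443), and TOC1 of the evening rose less there (-0.54, adjusted p = 0.0483). The calls were not firm. FKF1 passed only without WT replicate 3 at 38 °C or mutant replicate 2 or 3 at 22 °C, PRR5 only without replicate 3 of either WT group, mutant replicate 3 at 22 °C or mutant replicate 1 at 38 °C, RVE1 only without mutant replicate 3 at 22 °C, and TOC1 in none of the 12 fits, with adjusted p of up to 0.101, 0.0981, 0.119 and 0.122. With scaling on reference genes FKF1 and PRR5 were not called (0.108 and 0.0618), and without the 3 libraries none of the 4 was (0.107 to 0.127). PIF1, a phytochrome-interacting factor, was the only called gene of 21 in the list of the evening complex and thermomorphogenesis (-0.95, adjusted p = 0.0448), and passed only without WT replicate 3 at 38 °C or mutant replicate 3 at 22 °C (up to 0.12 otherwise, and 0.13 without the 3 libraries).

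**Figure D5:**
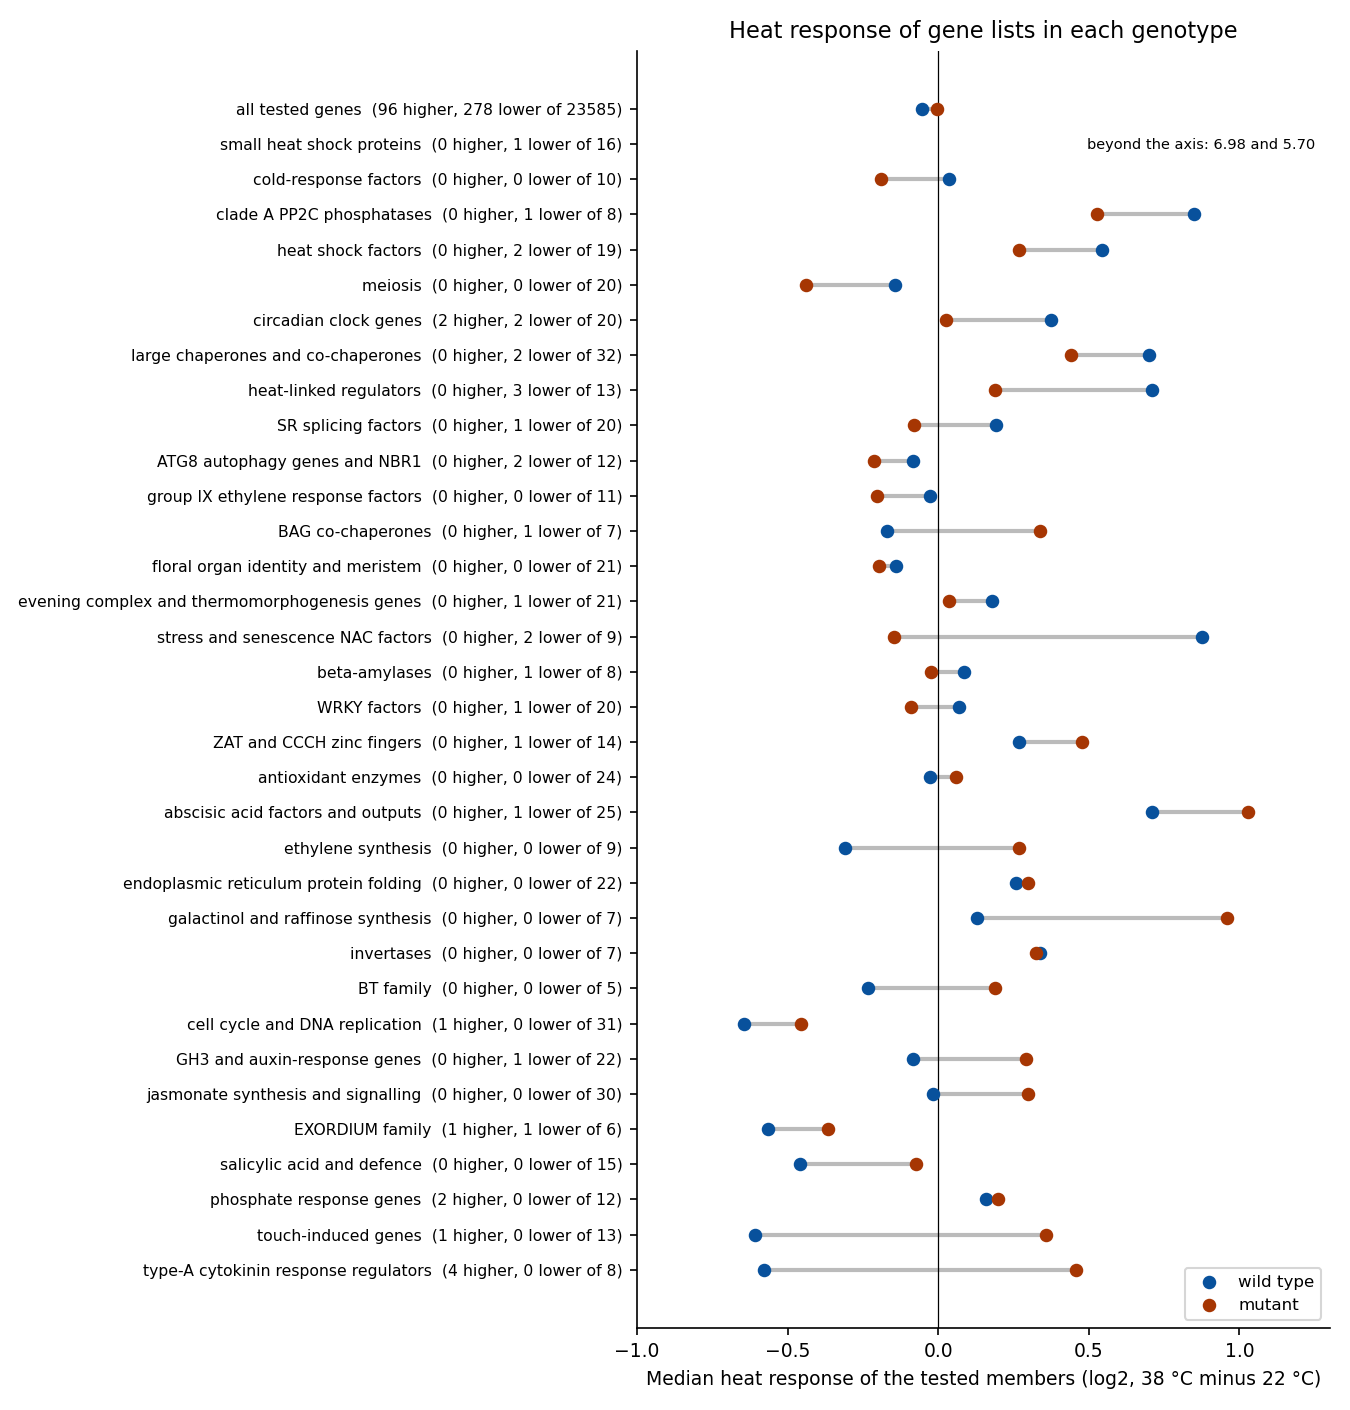
Median heat response of the tested members of each gene list (x axis, log2) in the wild type and the mutant, with the number of members called higher or lower in the mutant beside each list name. Type-A response regulators lie at -0.58 in the wild type and 0.46 in the mutant, and the small heat shock proteins, beyond the axis, at 6.98 and 5.70.

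Annotation terms differed in how often their genes were called. Heat acclimation had 5 lower and 0 higher of 46 tested genes (10.9%), response to heat 10 lower and 1 higher of 164 (6.71%) and cellular response to hypoxia 18 lower and 3 higher of 213 (9.86%). Response to water deprivation had 14 lower and 1 higher of 291 (5.15%), protein ubiquitination 21 lower and 4 higher of 531 (4.71%) and DNA-binding transcription factor activity 34 lower and 3 higher of 1324 (2.79%). Autophagy had 2 lower of 19 (10.5%) and mRNA processing 3 lower of 47 (6.38%). Near the background of 1.59% of all tested genes were response to oxidative stress, with 3 lower of 264 (1.14%), and response to wounding, with 2 lower of 191 (1.05%). In response to hypoxia none was called by edgeR or limma among 40 (11 at an unadjusted p below 0.05, 4 by DESeq2). Counts this small cannot be told apart from the background. Response to cytokinin had 4 higher and 0 lower of 52, the 4 response regulators named above. No gene was called by edgeR in the terms proteasome complex (55 genes, 2 at an unadjusted p below 0.05, 1 by DESeq2, 0 by limma), rRNA processing (91 genes, with 7, 4 and 0) or photosynthesis (67 genes, with 6, 2 and 0). Terms share genes, and these counts are descriptions without a set test.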

How the data were processed

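The deposited table gives 2 values per gene and library. Its estimated counts were made by the authors without scaling to depth, by a method no source used here names. In genes with 1 transcript, 47.2% of counts of at most 20 are multiples of 4, so the number of fragments behind a count is not known and no counting interval is given. Its FPKM values, fragments relative to transcript length and sequencing depth, were also made by the authors and give the levels here. The genome TAIR10 and the tools StringTie 1.3.4d, HISAT2 2.0.4 and cutadapt 1.9 are given per the submitters' processing notes. Libraries were made by a strand-marking method per the labels' protocols, but no source used here gives the strand setting of the counting. Reads of overlapping, antisense or near-identical genes can therefore count towards a gene, and annotated genes overlap HSFB2B, CDKB1;2, ARR6, TCH2, iPGAM1, MEF8S, HSP101, MBF1C, ABF3, HSA32, MTO3, DREB2A, ATAF1, SNRK2.3, RVE1, PIF1, BMY3 and FKF1.

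Estimated counts were rounded and fitted in R 4.3.3 with edgeR 4.0.16 (glmQLFit and glmQLFTest, a mean per group over 12 libraries, 8 residual degrees of freedom). The filter filterByExpr with a minimum count of 10 left 23585 of 27715 genes, with TMM scaling of the libraries. Dispersion was 0.0631 in common (biological coefficient of variation 25.1%). All tests were two-sided, adjusted by Benjamini-Hochberg over all tested genes, and called below 0.05. Intervals are 95% confidence intervals, with the standard error taken as the log2 change over the root of its F statistic. Classes follow the calls of the 2 heat comparisons. On simulated data for this difference with 23103 genes, 36 of 95 changes of size 1 (37.9%) and 62 of 95 of size 2 (65.3%) on the log2 scale were called. Beside these, 10 genes without a change were called (0.0436% of the unchanged genes). Symbols, promoters and starts came from RefSeq's TAIR10.1 annotation (27265 genes matched), and gene positions from the deposited table.

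Members and gene lists (39) were chosen with earlier results of these data known. Named genes are XBAT31, HSFB2A, HSFB2B, HSFA2 and ELF3, and, among called genes with a symbol and a mean of at least 1 FPKM in a group, the 12 largest in each direction, 8 per class and 4 per term by p, and 5 per list by p, as far as space allowed. Members of a list may be named whether or not they passed. Alternatives were DESeq2 1.42.0, its size factors, scaling on reference genes, no filter, a replicate block, limma 3.58.1 on log2(FPKM + 1) or with 0.1, counts divided by 4, a robust fit, and fits without libraries. Figures were drawn with matplotlib 3.10.9.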

Additional observations from a re-analysis of the deposited data

Results flagged for a closer look

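The genes below were called for a heat response that differed between the genotypes by a test of that difference itself, and values are log2 differences, mutant minus wild type. Responses that rose in the wild type and fell in the mutant were those of HSFB2B (-2.38), HSFB2A (-2.16), EXL2 (-1.78), BET10 (-1.20) and WRKY39 (-0.87), and the opposite was seen for CDKB1;2 (2.31), ARR7 (1.56), ARR4 (1.27) and TCH2 (1.22). A rise called only in the wild type was found for DREB2A (-2.17), TPS8 (-1.45), ATAF1 (-1.32), TZF3 (-1.28), ATG13 (-1.10), BAM7 (-0.98), SLK2 (-0.88), SNRK2.3 (-0.81) and bZIP28 (-0.69), and a fall called only there for MTO3 (1.09) and PSK3 (0.78). A fall called in the mutant and not in the wild type was found for NAP (-3.28), J11 (-2.92), DYL1 (-2.11), ACHT4 (-1.60), RVE1 (-1.34), PIF1 (-0.95) and ATG8C (-0.73), and a rise of that kind for ARR5 (1.55), EXL5 (1.31) and ARR6 (1.19). The response had the same sign and was smaller in the mutant for MBF1C (-2.06), HSP70T-2 (-1.71), HAI1 (-1.47), BAG6 (-1.47), ABF3 (-1.46), AT1G54050 (-1.40), SR45a (-1.15), HSP101 (-1.09), MEF8S (-1.05), HSA32 (-0.84) and TOC1 (-0.54) among genes that rose, and for iPGAM1 (0.65), which fell. It was larger in the mutant for SPX1 (1.32), G3Pp1 (1.19), PRR5 (0.75) and FKF1 (0.67), which rose, and for BMY3 (-1.48) and ATG8E (-1.12), which fell. With 3 libraries a group, no test for a single library far from its group was made.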

How the results depend on the processing

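The number of called genes, 374 (96 higher, 278 lower), depended on the setting more than its direction did: lower calls outnumbered higher ones under all 12 alternatives and in the 12 fits that left out 1 library. DESeq2 called 1842 (647 higher, 1195 lower, with 825 lost, 461 gained, 138 reversed, 334 smaller and 50 larger), among them the 374. Scaling on reference genes called 571 (32 and 539, with 221 lost, 38 gained, 49 reversed, 258 smaller and 5 larger). It called 10425 genes for heat in the wild type and 8587 in the mutant. A gained response was called for 54 genes with no filter, for 49 with limma on log2(FPKM + 0.1), which called 185 lower, and for 51 with limma without a filter. Without the 3 libraries that stood apart 24 were called (4 and 20, with 10 lost, 2 gained, 8 reversed, 4 smaller and 0 larger), and without WT replicate 3 at 22 °C as well, a fit chosen after seeing the data, 30 (9 and 21, with 10 lost, 2 gained, 15 reversed, 3 smaller and 0 larger). Fits without 1 library called 60 to 499 genes (13 to 163 higher, 47 to 336 lower), with 18 to 193 lost, 11 to 137 gained, 16 to 89 reversed, 12 to 56 smaller and 1 to 24 larger, and 5139 to 7894 genes for heat in the wild type and 4017 to 5726 in the mutant. The cause of this spread of counts was not tested.

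Replicate numbers did not pair the libraries: of 18 pairs with the same number, 2 had a correlation of deviations over 0.1 (range -0.28 to 0.266). A fit with the replicate number as a block called 128 genes (24 higher, 104 lower, with 46 lost, 24 gained, 28 reversed, 28 smaller and 2 larger).

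Of 48 named called genes, 48 kept the call with DESeq2, 45 with scaling on reference genes, 34 with the block 12 without the 3 libraries that stood apart and 10 without the 4, all with the same sign. With scaling on reference genes the heat response of ELF3 in the mutant was 0.29 and that of CDKB1;1 in the wild type 0.03, with a sign opposite to -0.03 and -0.41. Estimated counts do not give the depth in fragments, which limits the low genes, such as NCED3 and DREB2A.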

Other observations

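Genes of glucosinolate synthesis, the sulfur-containing defence compounds of the mustard family, had a median heat change of -0.09 in the wild type and 0.60 in the mutant. Of 26 tested genes of that term, 23 had a difference above 0 (median 0.85, beside 0.03 for all genes), and 1 was called by edgeR, 8 reached an unadjusted p below 0.05, 5 were called by DESeq2 and 1 by limma. Genes of jasmonate synthesis and signalling also lay on this side, with 23 of 30 differences above 0 (median 0.35), none called by edgeR or limma, 7 at an unadjusted p below 0.05 and 6 called by DESeq2. The lean was not particular to these genes. The photosynthesis term had 54 of 67 differences above 0 (median 0.26) and the markers of photosynthetic tissue 17 of 21 (median 0.29). The part of the unheated mutant library that was low in those markers was not tested.

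Of 41 tested genes of ribosomal RNA modification, heat raised 25 in the wild type and 14 in the mutant, beside 14.3% and 11.3% of all tested genes. The 41 genes had a median heat change of 1.5 and 0.94. Of these genes, 32 had a difference below 0 (median -0.32), and none was called by edgeR, 3 were called by DESeq2 and 2 by limma, with 9 at an unadjusted p below 0.05. Meiosis genes had 16 of 20 differences below 0 (median -0.30), with none called by edgeR, DESeq2 or limma and 1 at an unadjusted p below 0.05. These are descriptions of lists chosen with earlier results known, and the genes of a list are not independent.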
